A study of Mus musculus with 8 samples.

Results

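The SERCA pumps and calcium channels of the endoplasmic reticulum (ER) were followed as 9 genes, chosen by name from a table of 23366 genes: Atp2a2, Atp2a3, Itpr1, Itpr2, Itpr3, Ryr2, Stim1, Stim2 and Orai1. RNA came from cells labelled as pancreatic beta cells, purified by cell sorting from mice aged 8 to 10 weeks. The mice were of the NOD strain, in which autoimmune diabetes arises spontaneously. Markers of other islet cells were also abundant in the bottom libraries, as given below. The labels name a top and a bottom population with 4 libraries each, 2 in batch 1 (replicates 1 and 2) and 2 in batch 2 (replicates 3 and 4), and give no treatment or introduced allele. Each library was amplified from about 1000 cells with a kit for small RNA amounts, and the labels do not say how many mice a library pools or whether libraries came from separate mice, so a p-value reflects only variation among the libraries, which may be technical. Totals ran from 6657639 to 11262368 estimated counts per library. The sort gate behind the names top and bottom is not given in the sources used here.

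SERCA pumps use ATP to move calcium from the cytosol into the ER, and in beta cells this keeps the store filled that proinsulin folding depends on. IP3 receptors and ryanodine receptors are channels that let calcium out again, opened by the messenger IP3 or by calcium itself. When the store empties, the STIM proteins in the ER membrane sense it and open ORAI channels in the plasma membrane, which is called store-operated calcium entry.

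The bottom libraries held less RNA of both pumps and of the sensor Stim1, and more RNA of the release channel Itpr1. For Atp2a2, Atp2a3 and Stim1 every bottom library lay below every top library, and for Itpr1 every bottom library lay above. Itpr3 was lower on average with overlap, Itpr2, Stim2 and Orai1 varied widely within populations, and Ryr2 was at or near 0 in all 8 libraries. The genes were chosen with the bottom against top values in view, so these are descriptions with no test. Levels are in CPM, counts scaled to library size, here with TMM factors. Fold changes come from an edgeR fit with the batch as a covariate, where a positive log2 value means more in bottom. The standard errors (SE) beside them are approximate. Each is the absolute log2 fold change divided by the square root of the F statistic of its edgeR test. Of the 9 genes, 8 passed the filter on low counts, and all but Ryr2 are among them. In that fit 1 of the 8, Atp2a2, passed an adjusted p of 0.05 in the lower direction, against 0.162% of the 11721 genes tested, and 0 passed in the higher direction, against 0.282% (0.444% in either direction). The Atp2a2 call was lost in batch 1 alone, in batch 2 alone and with a replicate block, a fit that left 1 residual degree of freedom. DESeq2 called 3 of the 8 lower (Atp2a2, Atp2a3 and Stim1), against 1.87% of genes tested, and 1 higher (Itpr1), against 3.14%. The libraries did not overlap for 3 of the 8 in the lower direction, against 3.91% of genes tested, and for 1 in the higher direction, against 3.31% (7.22% in either direction). Since the choice of genes used this contrast, nothing is read from these counts. The median log2 fold change of the 8 was -1.18, beside 0.00 over all genes tested, with values from -2.04 for Stim1 to 2.51 for Orai1. The same limit holds for this median, and no shift of the 8 genes as a group is read from it.

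**Figure D1:**
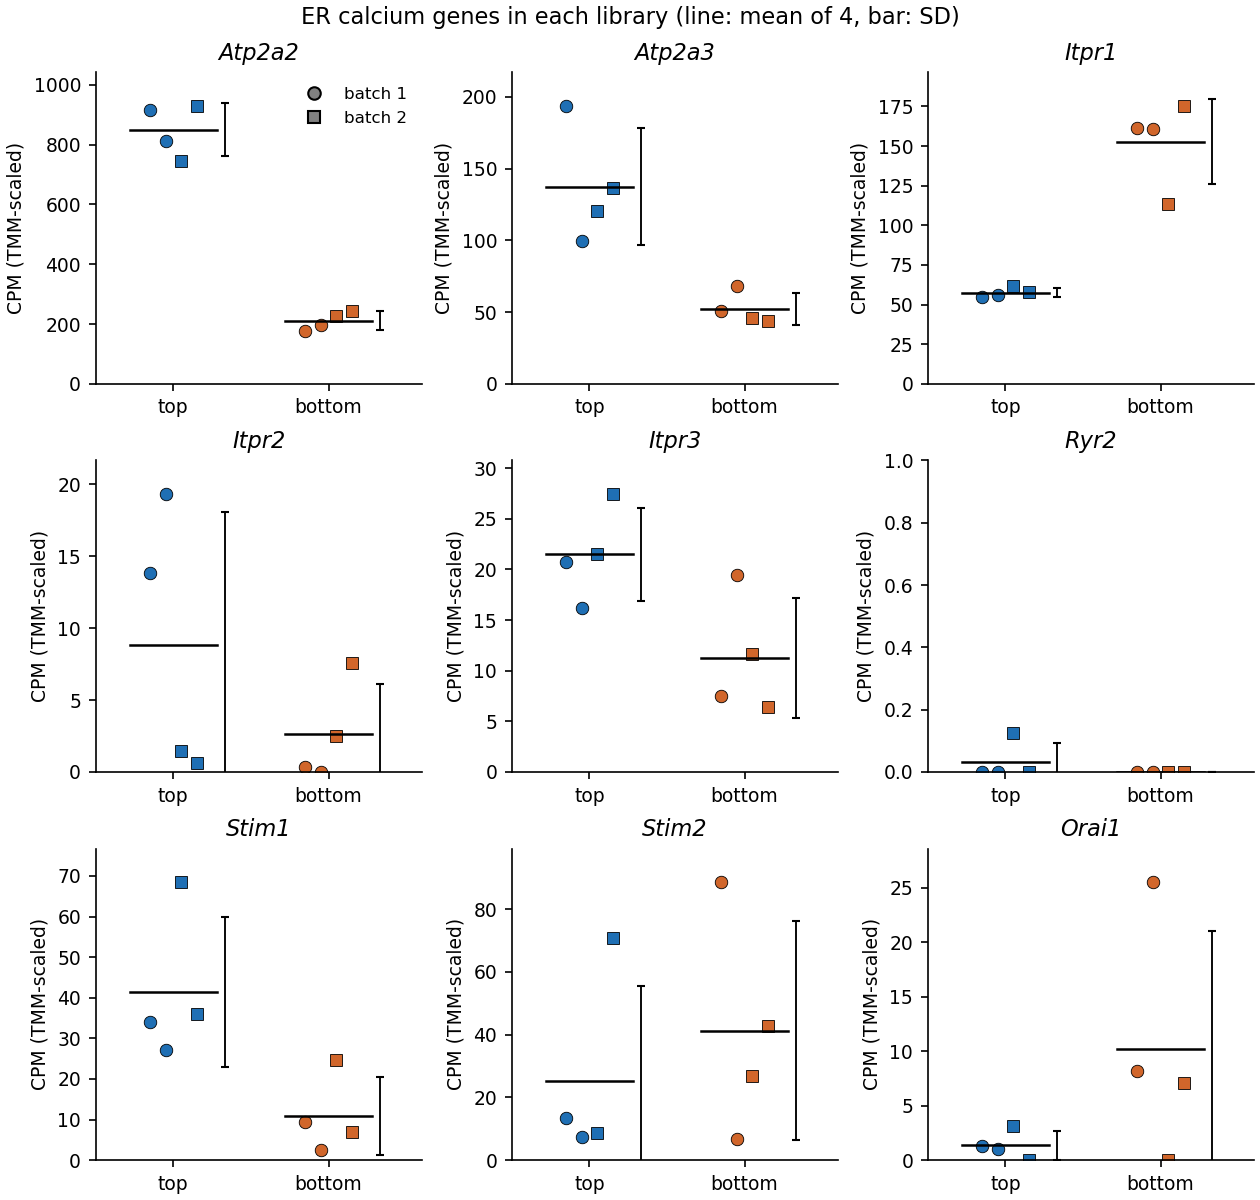
Level of each gene in CPM after TMM scaling, 1 panel per gene, for 4 top libraries (blue) and 4 bottom libraries (orange). Circles are batch 1 and squares batch 2, lines are means, bars are SD and end at 0 where they would pass below it. Atp2a2, Atp2a3 and Stim1 separate downwards and Itpr1 upwards, while the other genes overlap.

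Promoter windows of 7 of the 9 genes were found by symbol in a RefSeq table of build GRCm38.p6, and Atp2a2 and Itpr1 had no entry. The 250 bases upstream of the start are shown for Atp2a3 and Stim1, the pair with an entry among the genes whose bottom libraries all lay below the top libraries. Capitals mark the GC box GGGCGG, a binding motif of Sp family factors, on either strand.
Atp2a3, chr11:72960919-72961168, plus strand: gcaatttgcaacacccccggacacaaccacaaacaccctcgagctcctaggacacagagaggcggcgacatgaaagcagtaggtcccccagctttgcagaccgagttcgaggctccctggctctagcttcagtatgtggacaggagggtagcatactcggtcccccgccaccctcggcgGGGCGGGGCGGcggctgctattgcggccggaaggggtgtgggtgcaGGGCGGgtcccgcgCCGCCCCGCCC
Stim1, chr7:102267569-102267818, plus strand: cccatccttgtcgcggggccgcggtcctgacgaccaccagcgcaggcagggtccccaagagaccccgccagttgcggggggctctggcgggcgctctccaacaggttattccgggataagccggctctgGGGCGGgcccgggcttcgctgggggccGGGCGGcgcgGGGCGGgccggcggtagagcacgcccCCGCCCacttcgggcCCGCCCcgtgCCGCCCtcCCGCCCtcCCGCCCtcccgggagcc

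The Atp2a3 window held 5 GC boxes, some sharing a base with the next, and the Stim1 window 8. GC boxes were not particular to this pair: Itpr2 had 4, Itpr3 1, Stim2 3, Orai1 3 and Ryr2 0. A GC box occurred in 32.7% of all 32851 windows of this length. G and C made up 66.8% of the Atp2a3 window and 78.4% of the Stim1 window, against a median of 52.4% over all windows. Neither window held CCAAT (33.9% of windows), TATAAA (12.4%) or the ER stress element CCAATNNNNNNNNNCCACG (0.113%), which begins with CCAAT. All motifs were searched on both strands, and an absent match says only that these letters are not in this window.

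Among the pumps, Atp2a2 encodes SERCA2, the pump found in nearly all cells. It was at 914.6, 810.8, 744.8 and 930.7 CPM in top 1 to top 4, and at 176.8, 195.3, 228.5 and 245.3 CPM in bottom 1 to bottom 4. The lowest top library lay far above the highest bottom library, and the libraries within each population lay close together. The mean was 850 ± 88.1 CPM in top and 211 ± 31.1 CPM in bottom (SD, n = 4), a 4.05-fold higher level in top (log2 fold change -2.02, SE 0.22). In batch 1 alone the log2 fold change was -2.24 and in batch 2 alone -1.81.

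Atp2a3 encodes SERCA3, a pump with lower calcium affinity that beta cells carry beside SERCA2. It was at 193.9, 99.3, 120.2 and 136.4 CPM in top 1 to top 4, and at 51.0, 68.4, 45.6 and 43.6 CPM in bottom 1 to bottom 4. The populations did not overlap, and top 1 was the highest of the top libraries. Means were 138 ± 40.6 and 52.2 ± 11.3 CPM (SD, n = 4), a 2.66-fold higher level in top (log2 fold change -1.41, SE 0.31, and -1.32 and -1.51 in batches 1 and 2 alone).

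To compare levels between genes, CPM was divided by the coding length in kilobases (kb). On that scale Atp2a2 was the more abundant pump in all 8 libraries, at 82.4% to 89.0% of the summed Atp2a2 and Atp2a3 level in top and at 73.9% to 84.8% in bottom. The summed pump level was 316 ± 37.8 CPM per kb in top and 84.3 ± 8.31 in bottom (SD, n = 4). Atp2a1, the pump of fast skeletal muscle, had 0 counts in all libraries.

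Itpr1, the IP3 receptor type first known from cerebellar neurons, varied little among the top libraries. It was at 54.95, 56.25, 61.46 and 57.79 CPM in top 1 to top 4, and at 161, 161, 114 and 176 CPM in bottom 1 to bottom 4. The lowest bottom library, bottom 3, was still well above every top library. Means were 57.6 ± 2.81 and 153 ± 26.9 CPM (SD, n = 4), a 2.65-fold higher level in bottom (log2 fold change 1.41, SE 0.27, and 1.51 and 1.29 in batches 1 and 2 alone).

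Itpr3, a receptor type common in epithelial and endocrine cells, was at 20.7, 16.2, 21.5 and 27.5 CPM in top 1 to top 4. It was at 7.54, 19.4, 11.7 and 6.39 CPM in bottom 1 to bottom 4. Only bottom 2 reached into the top range. The means were 21.5 ± 4.63 and 11.3 ± 5.91 CPM (SD, n = 4; log2 fold change -0.94, SE 0.63).

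Itpr2, the third IP3 receptor gene, went opposite ways in the batches. In batch 1 it was at 13.8 and 19.3 CPM in top 1 and top 2 and at 0.328 and 0 CPM in bottom 1 and bottom 2. In batch 2 it was at 1.48 and 0.635 CPM in top 3 and top 4 and at 2.53 and 7.60 CPM in bottom 3 and bottom 4. All these levels are low, and the 4 bottom libraries together held 109 counts. The log2 fold change was -1.97 with an approximate SE of 3.20, larger than the change itself. DESeq2 gave -2.02 with an SE of its own of 1.52. The top mean of 8.82 CPM was 5.31 CPM without top 2, and the bottom mean of 2.61 CPM was 0.952 CPM without bottom 4.

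The make-up of the IP3 receptor pool, on the coding length scale, differed accordingly. Itpr1 made up 60.8%, 60.7%, 72.2% and 66.6% of the 3 receptors in top 1 to top 4. It made up 95.2%, 88.9%, 88.6% and 92.5% in bottom 1 to bottom 4. Itpr3 made up 18.0% to 32.6% in top and 3.47% to 11.1% in bottom, without overlap. The summed IP3 receptor level was 10.75 ± 0.412 CPM per kb in top and 20.25 ± 3.295 in bottom (SD, n = 4). The ratio of summed pumps to summed IP3 receptors was 25.9 to 32.4 in top and 3.55 to 5.63 in bottom. Its size depends on the length scaling: in plain CPM it was 9.92 to 12.4 in top and 1.35 to 2.14 in bottom.

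**Figure D2:**
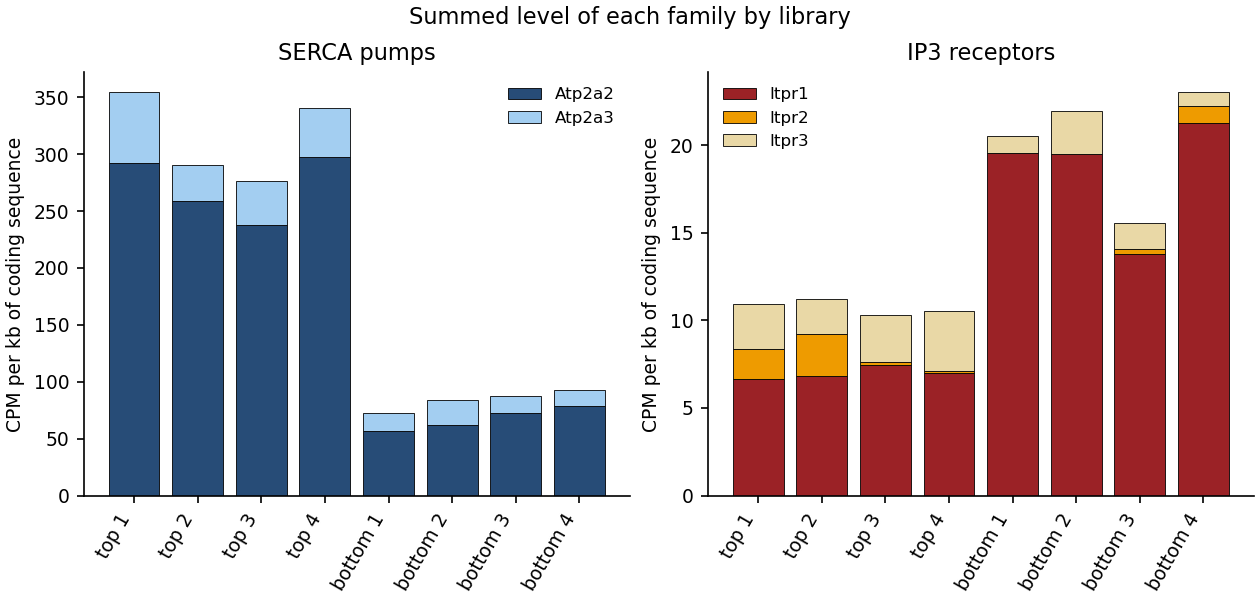
Stacked bars of the 2 SERCA genes (left) and the 3 IP3 receptor genes (right) in each library, in CPM per kb of coding sequence. The pump bars reach 276 to 354 in top and 72.8 to 92.3 in bottom, while the receptor bars reach 10.3 to 11.2 in top and 15.6 to 23.0 in bottom, most of it Itpr1.

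Ryr2, the ryanodine receptor of heart muscle that is also described in beta cells, had 1.21 estimated counts in top 3 and 0 in the other 7 libraries. A count of 0 allows up to 3 counts per library, which is 0.278 to 0.476 CPM depending on the library, counting error only. Ryr1, the skeletal muscle receptor, had 0 counts throughout. Ryr3, the most widely expressed type, was at 4.17, 0, 16.3 and 0 CPM in top 1 to top 4 and at 0.0927 to 2.52 CPM in bottom, and it did not pass the low-count filter. Its top mean of 5.12 CPM was 1.39 CPM without top 3, and its bottom mean of 0.920 CPM was 0.386 CPM without bottom 2. Ryr2 and Ryr1 were thus not detectable at this depth beyond the counts named, and Ryr3 was highest in top 3 and top 1.

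Of the store sensors, Stim1 triggers strong entry once the store is depleted. It was at 34.0, 27.1, 68.5 and 36.0 CPM in top 1 to top 4, and at 9.40, 2.43, 24.8 and 6.95 CPM in bottom 1 to bottom 4. The populations did not overlap, although bottom 3 came close to top 2. Means were 41.4 ± 18.5 and 10.9 ± 9.69 CPM (SD, n = 4), a 4.12-fold higher level in top (log2 fold change -2.04, SE 0.64, and -2.40 and -1.71 in batches 1 and 2 alone). Without bottom 3 the bottom mean was 6.26 CPM.

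Stim2, the sensor that responds to small drops of ER calcium, was at 13.5, 7.53, 8.53 and 70.8 CPM in top 1 to top 4. It was at 88.7, 6.82, 26.9 and 42.9 CPM in bottom 1 to bottom 4. The highest top library exceeded all bottom libraries but bottom 1, and bottom 2 was the lowest of all 8. The log2 fold change was 0.99 (SE 0.98), and it was -0.36 without bottom 1. Without top 4 the top mean fell from 25.1 to 9.86 CPM, and without bottom 1 the bottom mean fell from 41.3 to 25.5 CPM. On the coding length scale Stim1 made up 32.6% to 88.4% of both sensors in top and 9.15% to 46.7% in bottom, with overlap.

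Orai1, the pore of store-operated entry, was scarce in top, at 1.30, 1.00, 3.09 and 0 CPM in top 1 to top 4. In bottom 1 to bottom 4 it was at 8.19, 25.5, 0 and 7.04 CPM. Bottom 1, bottom 2 and bottom 4 lay above all of top, and bottom 3 was at 0. The log2 fold change was 2.51 with an SE of 1.73. Without bottom 2 the bottom mean fell from 10.2 to 5.08 CPM, and without top 3 the top mean fell from 1.35 to 0.766 CPM.

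The paralogs Orai2 and Orai3 form entry channels of their own or together with Orai1. Orai2 was at 15.4 ± 5.78 CPM in top and 6.65 ± 8.97 in bottom (SD, n = 4; edgeR adjusted p = 0.773, log2 fold change -1.62 with SE 1.30). Orai3 was at 14.7 ± 3.85 and 20.8 ± 21.0 CPM (edgeR adjusted p = 0.944, log2 fold change 0.27 with SE 0.71). The bottom mean of Orai2 was 2.24 CPM without bottom 1, and that of Orai3 was 10.3 CPM, with a log2 fold change of -0.48, without bottom 2.

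**Figure D3:**
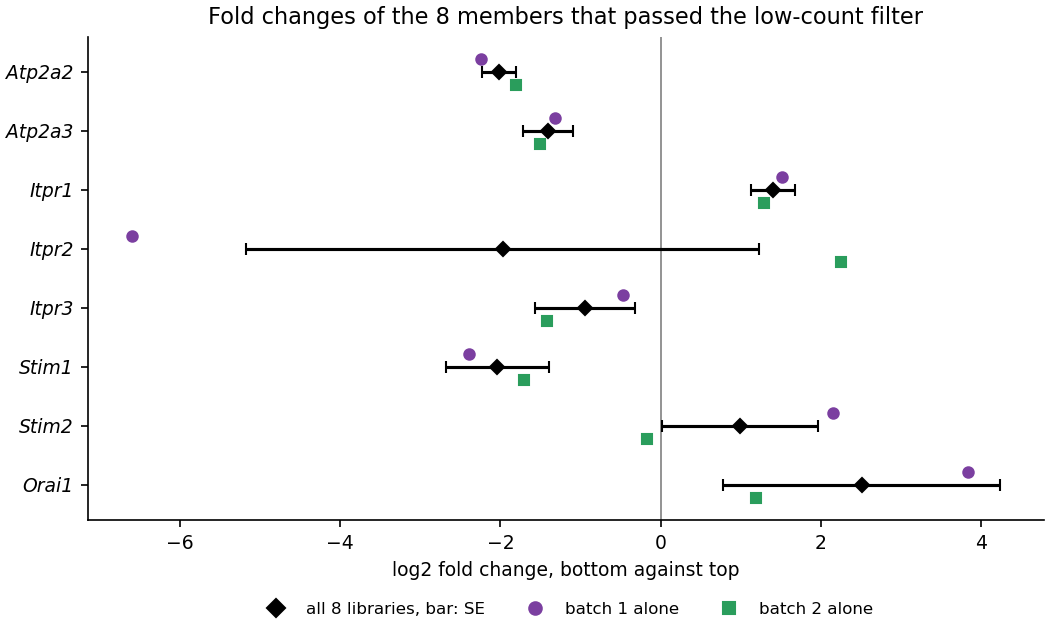
Log2 fold change of bottom against top for the 8 genes that passed the low-count filter. Diamonds are the fit of all 8 libraries with its SE, circles are batch 1 alone and squares batch 2 alone. Atp2a2, Atp2a3, Itpr1 and Stim1 lie on the same side of 0 in both batches, while Itpr2 and Stim2 change side.

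The order of the 9 genes per coding length differed between the populations. In top, Atp2a2 came first at 271 ± 28.1 CPM per kb, followed by Atp2a3 at 44.1 ± 13.0 and Stim1 at 17.4 ± 7.76 (SD, n = 4). Stim1 overlapped Stim2, Stim2 overlapped Itpr1 at 6.99 ± 0.341, Itpr3 overlapped Orai1, and Orai1 overlapped Itpr2, which did not overlap Ryr2. In bottom, Atp2a2 again came first, at 67.5 ± 9.92 CPM per kb, and no other gene overlapped it. Behind it, Itpr1 at 18.5 ± 3.27, Stim2 at 18.3 ± 15.4, Atp2a3 at 16.8 ± 3.62, Orai1 at 11.2 ± 11.9 and Stim1 at 4.57 ± 4.07 each overlapped the next gene.

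The batch comparison was not used to choose the genes and could be tested. None of the 8 genes differed between batch 2 and batch 1 in edgeR (adjusted p from 0.688 for Stim1 to 0.989 for Itpr2), and 0 of them had an unadjusted p under 0.05. Over all genes tested 1 was called (0.00853%), and 985 had an unadjusted p under 0.05. DESeq2 called 370 genes in this comparison. The difference of the bottom against top contrast between batches was called for 0 of the 8 genes and for 0 of all genes tested (0.0%) in edgeR, while 885 of all genes had an unadjusted p under 0.05. DESeq2 called 188. Among the 8 genes Itpr2 alone had an unadjusted p under 0.05, with a difference between batches of 8.81 on the log2 scale (SE 2.35, edgeR adjusted p = 0.499).

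Other genes of ER calcium handling were taken from 8 lists, in which 72 of 104 genes passed the low-count filter. Of these 72, 1 was called lower and 0 higher in bottom, against 0.162% and 0.282% of all genes tested. The lists, like the 9 genes, were chosen with earlier results of these data known, so their adjusted p-values carry that limit. The called gene was Fkbp1b, the FKBP12.6 protein that binds ryanodine receptors and stabilises their closed state. It was at 159.8, 110.0, 59.1 and 103 CPM in top 1 to top 4 and at 7.21, 30.0, 11.6 and 7.04 CPM in bottom 1 to bottom 4, without overlap. The log2 fold change was -2.99 with an SE of 0.51, at an edgeR adjusted p = 0.0462, and it was -2.88 in batch 1 alone and -3.11 in batch 2 alone. All 4 bottom libraries lay below all top libraries. The edgeR call was lost without the batch term (adjusted p = 0.0662), in batch 1 alone (adjusted p = 0.325) and in batch 2 alone (adjusted p = 0.215). The edgeR call was lost too with a replicate block, a fit that left 1 residual degree of freedom (adjusted p = 0.529). It was also lost without top 1, top 2, top 3, top 4, bottom 3 or bottom 4, with edgeR adjusted p between 0.0360 and 0.174 over all omissions of a library. Without bottom 2 the bottom mean fell from 13.96 to 8.61 CPM.

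By list, the median log2 fold change ranged from -0.67 to 1.06. The list of IP3, cyclic ADP-ribose and NAADP signalling, which holds receptors, G proteins, enzymes and channels, had a median of 1.06 over 13 tested genes. Of these, 9 were positive, beside 50.1% of all genes tested. Some of the positive genes were scarce or variable, such as Plcg2 with a top mean of 0.856 CPM and Bst1 with an SE of 2.22. The other paralogs had a median of -0.67 over 2. Medians were -0.12 for 10 SERCA regulators and leak genes, -0.27 for 12 regulators of IP3 and ryanodine receptors, and 0.02 for 6 partners of store-operated entry. They were -0.18 for 14 calcium-binding proteins of the ER lumen, 0.30 for 5 pumps and exchangers of plasma membrane and Golgi, and 0.06 for 10 genes of mitochondrial calcium uptake. No list but that of Fkbp1b had a called gene.

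The chaperones that bind calcium in the ER lumen were abundant in both populations. Hspa5, the chaperone BiP, had a log2 value of -0.38 on the log2 scale with an SE of 0.19, and Hsp90b1, the chaperone GRP94, one of -0.26 with an SE of 0.19 (edgeR adjusted p = 0.543 and 0.728). Tmbim6, an ER membrane protein linked to calcium leak, and Sec61a1, the translocon pore, had values of 0.46 and -0.47 (edgeR adjusted p = 0.764 and 0.666). Tmem66, now named Saraf, which turns store-operated entry off, had a value of -0.25, and the protease gene Sppl3 one of -0.69 (edgeR adjusted p = 0.834 and 0.644). The plasma membrane pump Atp2b1 and the Golgi pump Atp2c1 had values of 0.58 and -0.44 (edgeR adjusted p = 0.691 and 0.764). The G protein subunits Gnaq and Gna11, which couple receptors to phospholipase C, had values of -0.25 and 1.22 (edgeR adjusted p = 0.924 and 0.691), and the bottom mean of Gna11 was 131 CPM with and 43.8 CPM without bottom 1. The outer mitochondrial membrane channels Vdac2 and Vdac3 had values of 0.72 and -0.46 (edgeR adjusted p = 0.427 and 0.773).

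Among the 72 genes the libraries did not overlap for 5 in the higher and 4 in the lower direction, against 3.31% and 3.91% of genes tested. These 9 are named after their values were seen. Lower in all bottom libraries were Fkbp1b, the wolframin gene Wfs1, the lumenal calcium buffer Calr and the muscarinic receptor Chrm3. Calr was at 751 ± 57.6 CPM in top and 442 ± 59.2 in bottom, and Chrm3 at 3.82 ± 0.450 and 0.327 ± 0.165 CPM (SD, n = 4; edgeR adjusted p = 0.190 and 0.154). Higher in all bottom libraries were Sri, Asph, Rcn3, Tmem110 and Cd38. Sri, the calcium sensor sorcin, was at 78.5 ± 9.86 and 179 ± 55.9 CPM, and Cd38, which makes cyclic ADP-ribose, at 4.52 ± 1.24 and 26.3 ± 16.2 CPM (edgeR adjusted p = 0.164 and 0.222).

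**Figure D4:**
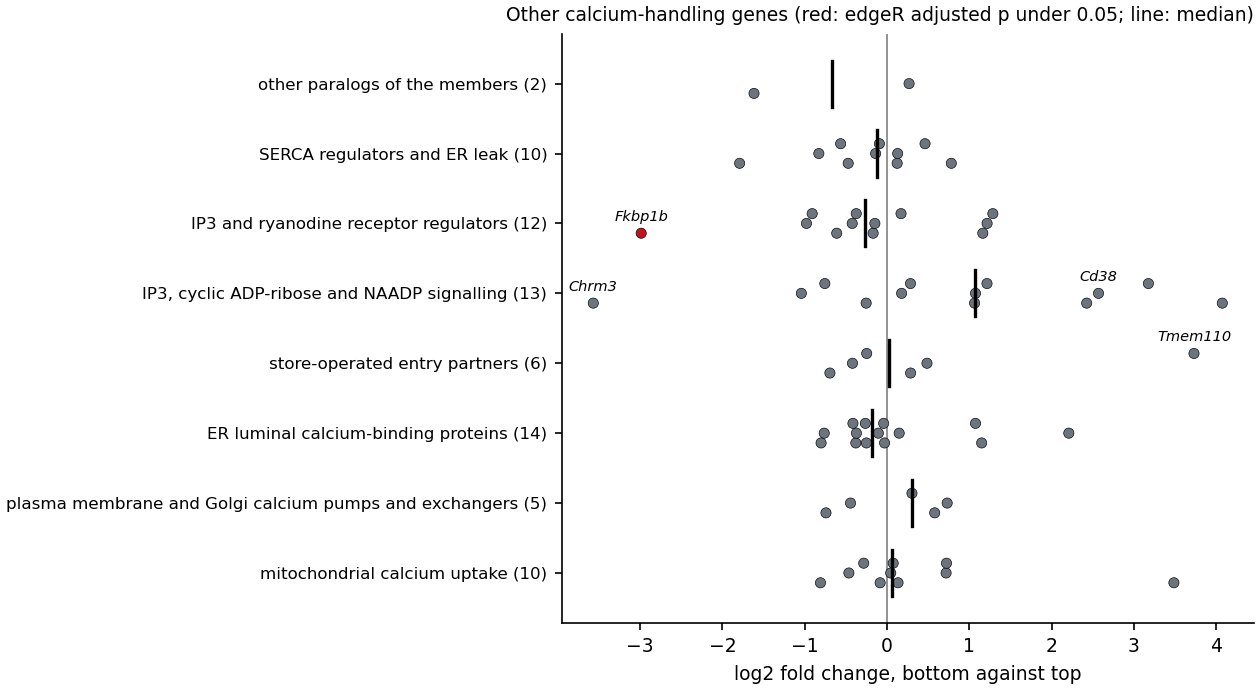
Log2 fold change of bottom against top for the 72 tested genes of the 8 lists, 1 point per gene and 1 line per list, with the number of tested genes in brackets. Black lines are medians, which lie near 0 in most lists, and the red point is Fkbp1b at -2.99, the called gene.

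Markers of several cell types moved with these differences, and their part in them was not tested. The summed level of 9 beta cell markers was 343200 to 504700 CPM in top and 38450 to 80830 CPM in bottom, with 6 of 9 lower in all bottom libraries and Mafa at 0. That of 4 delta cell markers was 2649 to 5296 CPM in top and 33400 to 57800 CPM in bottom, with 3 of 4 higher in all bottom libraries. That of the 2 PP cell hormones was 1196 to 2356 and 11340 to 91990 CPM, both higher in all bottom libraries. Of all genes tested, 3.91% were lower and 3.31% higher in all bottom libraries. In bulk RNA, fewer cells of a type and less RNA per cell cannot be told apart. The sums of the 6 alpha cell and 5 duct cell markers overlapped between populations, at 65060 to 138000 against 28940 to 141800 CPM and 129 to 385 against 270 to 755 CPM. In bottom 1 the beta sum of 38450 CPM lay below the alpha (50950), delta (52680) and PP (77080) sums. In bottom 2 the beta sum of 80830 CPM lay below the alpha (141800) and PP (91990) sums and above the delta sum (57800). In bottom 3 and bottom 4 the beta sum, 61570 and 78890 CPM, exceeded the alpha, delta and PP sums.

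Among other cells, the 7 acinar markers summed to 16.6 to 207 CPM in top and 123 to 1081 in bottom, with Prss1 at 0. The 6 fibroblast and stellate markers summed to 0.126 to 12.4 and 3.28 to 763 CPM, the 5 endothelial markers to 0 to 6.67 and 1.86 to 182 CPM, and the 6 smooth muscle and pericyte markers to 0.863 to 3.65 and 1.53 to 270 CPM, with Cnn1 at 0. In each of these 3 sums bottom 4 was the highest library and bottom 1 the lowest of the bottom libraries. Higher in all bottom libraries were 3 of the 5 endothelial and 3 of the 6 fibroblast and stellate markers. The same held for 1 of the 6 smooth muscle and pericyte and 1 of the 7 acinar markers. Of the 6 T and B cell markers 1 was lower in all bottom libraries. The 7 intestinal markers summed to 29410 CPM in bottom 1, 6934 in bottom 2 and 14.5 to 1844 in the other libraries. The 5 pan-leukocyte markers summed to at most 3.37 CPM, the 6 T and B cell markers to at most 14.8 CPM in top and 0.843 CPM in bottom, and the 6 platelet and erythrocyte markers to at most 6.67 CPM, with Hbb-b1 at 0.

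Against insulin RNA the pumps took the opposite order, as a gene does whose level fell less than that of insulin. Ins1 and Ins2 made up 37.8% of scaled counts in top and 4.82% in bottom on average. The order thus follows from the divisor, and no level per beta cell is read from it. Atp2a2 was at 2.24, 1.72, 2.44 and 2.84 CPM per 1000 CPM of Ins1 and Ins2 in top 1 to top 4, and at 6.29, 2.81, 6.19 and 4.22 in bottom 1 to bottom 4. Bottom 2 lay within the top range, and the other bottom libraries lay above it. Atp2a3 was at 0.211 to 0.474 in top and 0.751 to 1.82 in bottom on that scale, without overlap. Itpr1 was at 0.119 to 0.201 in top and 2.31 to 5.73 in bottom. The log2 fold change of Atp2a2 was -2.02, beside -2.99 for Ins2, -2.76 for Ins1, -2.41 for G6pc2 and -1.08 for the amylin gene Iapp.

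The genes most like each pump were found by the root mean square difference of centred log2 CPM over the 8 libraries, among 8232 other genes with a mean of at least 10 CPM. For Atp2a2 these were Phactr1 (0.276), G6pc2 (0.282) and Lrrn1 (0.293), where the median over all genes compared was 1.26. For Atp2a3 they were Bmi1 (0.237), the signal recognition particle receptor subunit gene Srprb (0.259) and the cargo receptor gene Lman1 (0.272), where the median was 1.07. The libraries share population and batch, so this is a description.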

How the data were processed

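The authors deposited expected counts, estimates of reads per gene made by RSEM per the submitters' processing notes, which also name edgeR and build mm9. The aligner, annotation and versions are not given in the sources used here. Totals were 6657639 to 11262368 estimated counts per library, and 34.8% of values were not whole, because RSEM divides reads shared between genes, paralogs included. Counts were rounded to whole numbers. Whether the counting used strand is not given in the sources used here.

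Genes were tested with edgeR 4.0.16 in R 4.3.3: TMM scaling, filterByExpr (11721 genes kept), the quasi-likelihood test with population and batch as terms, and Benjamini-Hochberg adjustment over all genes tested. A model with an interaction term tested differences between batches. The script was tested on simulated data. Alternatives were RLE size factors, no filter, DESeq2 1.42.0, no batch term, each batch alone, a replicate block and leaving out each library.

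The 9 genes, the 8 pathway lists and the 13 marker lists were chosen with earlier results of these data known. Named were all 9 genes, the 5 other paralogs, and per list the called genes, or else the 2 most abundant. Coding lengths are the longest coding sequence per gene in GENCODE M21 (GRCm38), used in place of the planned RefSeq proteins.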

Additional observations from a re-analysis of the deposited data

Results flagged for a closer look

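In 49 groups of 4 libraries, over the 9 genes and 18 named pathway genes, 4 libraries stood far from the other 3 by Dixon's criterion. Chance gives about 1 such case in 20 groups if values are normally distributed, which CPM near 0 are not. Stim2 in top 4 was 70.8 CPM, against 7.53 to 13.5 CPM in the other top libraries. Ryr2 in top 3 was 0.124 CPM, which is 1.21 estimated counts, against 0 in the others, a pattern that always meets the criterion. Orai3 in bottom 2 was 52.2 CPM, against 9.48 to 11.0 CPM. Vdac3 in bottom 2 was 206.6 CPM, against 92.7 to 101.0 CPM.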

How the results depend on the processing

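For bottom against top, the 52 genes called in edgeR became 204 without the low-count filter, 587 with DESeq2, 32 without the batch term, 2 in batch 1 alone, 2 in batch 2 alone, and 8 to 60 when 1 library was left out (omitting top 1 gave 12, top 2 gave 8, top 3 gave 28, top 4 gave 14, bottom 2 gave 33, bottom 3 gave 23 and bottom 4 gave 11). With a replicate block of batch and title number edgeR called 0 genes. That fit left 1 residual degree of freedom, so its lack of calls says little. Only libraries numbered 1 share such a block. The deviations of these libraries correlated at 0.0874 in batch 1 and 0.000497 in batch 2. Each deviation rests on 2 libraries, and replicates varied widely, so a low correlation cannot exclude pairing. The labels do not say that the numbers pair libraries, and the main fit did not pair them. For batch 2 against batch 1, the 1 called gene became 149 without the filter, 370 with DESeq2 and 0 to 17 with 1 library left out (17 without top 2, 3 without top 4). The difference between batches was called for 0 genes, for 71 without the filter, for 188 with DESeq2 and for 0 in each omission of a library. RLE size factors gave 48, 1 and 0 genes. The cause of these differences was not tested.

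Atp2a2, Atp2a3, Itpr1, Itpr3, Stim1 and Fkbp1b kept their sign in all 15 alternatives, with log2 fold changes of -2.24 to -1.81, -1.66 to -1.23, 1.22 to 1.53, -1.42 to -0.47, -2.59 to -1.66 and -3.52 to -2.73. So did Orai2, Sec61a1, Sppl3, Hspa5, Hsp90b1, Atp2b1, Atp2c1 and Vdac2, none of which was called, so a kept sign alone does not mark a difference. Signs turned for Itpr2 (0.55 without bottom 1, 0.61 without bottom 2, 2.25 in batch 2 alone), Stim2 (-0.36 without bottom 1, -0.17 in batch 2 alone) and Orai1 (-1.10 with the replicate block). They also turned for Orai3 (-0.02 without top 1, -0.48 without bottom 2, -0.50 in batch 2 alone, -0.56 with the block) and Gnaq (0.12 without bottom 1, 0.22 in batch 2 alone). In batch 2 alone Tmbim6 was at -0.26, Gna11 at -0.36 and Tmem66 at 0.047, and in batch 1 alone Vdac3 was at 0.12. Without length scaling Atp2a2 made up 86.2% of pump RNA in top and 80.0% in bottom, and Itpr1 65.7% and 91.5% of IP3 receptor RNA. With 1 library left out, log2 fold changes ran from -4.72 to 0.61 for Itpr2, -0.36 to 2.10 for Stim2, -0.48 to 0.58 for Orai3 and -0.63 to 0.12 for Gnaq. At this depth a count of 0 allows up to 0.476 CPM by counting error only. Libraries of a population can differ by more, as Orai1 at 0 in bottom 3 and at 7.04 to 25.5 CPM in the other bottom libraries.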
